A study of Caenorhabditis elegans with 12 samples.

Results

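The genes described here encode 10 proteins of the machinery that cuts and polyadenylates pre-mRNA in *Caenorhabditis elegans*. They are *cpf-1*, *cpf-2*, *cpsf-1*, *cpsf-2*, *cpsf-3*, *cpsf-4*, *fipp-1*, *symk-1*, *pcf-11* and *clpf-1*, taken by WormBase symbol from a table of 20182 genes. All 10 were in the table, and all 10 were among the 12036 genes that passed a filter on low counts. The set was chosen by the level of *cpf-1* and its partners in immunoprecipitates (IPs) over input in both strains, so all IP-over-input values are given as descriptions without a test.

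The data are RNA co-immunoprecipitations followed by sequencing (RIP-seq) with an anti-FLAG antibody, made from whole worms of mixed L3 and L4 stage after about 30 h at 25 °C. The LIN41 strain carried the mutant allele *lin-41(n2914)* and the transgene *xeSi197*, in which LIN41, an RNA-binding protein of the TRIM-NHL family, bears FLAG and GFP and is driven by the promoter of *lin-41* with the 3′ UTR of the same gene. The control strain has no *lin-41* mutation in its genotype and carried *xeSi55*, in which SART-3 bears GFP, His and FLAG and is driven by the promoter of *dpy-30*, a gene active in most cells, with the 3′ UTR of *xrn-2*. Both strains carry *him-5(e1490)*, which raises the share of males. The 4 groups, each with 3 replicates, are LIN41 IP, LIN41 input, SART-3 IP and SART-3 input. Each IP library pooled 5 precipitations, and IP and input libraries ran in different lanes of 1 flow cell, so an IP-over-input value also holds any difference between the lanes.

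Cleavage and polyadenylation ends almost every mRNA. In animals, the cleavage and polyadenylation specificity factor (CPSF) recognizes the poly(A) signal and cuts the RNA, and the cleavage stimulation factor (CstF) binds downstream of the cut. Symplekin is the scaffold that holds the subunits together, Fip1 brings in poly(A) polymerase, and cleavage factor II, made of Pcf11 and Clp1, links the cut to the end of transcription. The subunits work as one assembly in nearly every cell, but the abundance of an mRNA and its recovery in an IP are separate measurements, and neither reports on the protein.

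Library totals had a lowest, median and highest value of 291466, 389151 and 404046 counts in the LIN41 IP, 859814, 993849 and 2024430 counts for the LIN41 input, 412440, 456053 and 612445 in the SART-3 IP, and 1274703, 1354051 and 1401265 in the SART-3 input. A count of 3, taken as the detection floor, was worth 13.7 CPM in the shallowest IP (LIN41 IP replicate 1), where CPM are counts at a common library size after TMM scaling. Replicate 1 stood apart in every group. The chi-square statistic per degree of freedom between counts of a pair of replicates was 3.38 to 16.9 for pairs with replicate 1 and 1.54 to 2.16 for replicates 2 and 3, so no library was a copy of another. IP-over-input values of *cpf-2*, *cpsf-2*, *cpsf-3*, *fipp-1*, *symk-1* and *pcf-11*, and the comparison of the inputs, are given with and without replicate 1. The mRNA of the bait was raised in the IP of the LIN41 strain only. The *lin-41* mRNA stood at 2016, 181 and 222 CPM in LIN41 IP replicates 1 to 3, against 127, 21.2 and 15.4 CPM in the LIN41 input, so that replicate 1 was the highest in both. It averaged 14.4 ± 5.87 CPM in the SART-3 IP and 23.3 ± 17.2 CPM in the SART-3 input (SD, n = 3 each). The *sart-3* mRNA, part of the control transgene, was not raised in its own IP (67.6 ± 12.3 CPM in the SART-3 IP and 98.3 ± 2.93 CPM in the SART-3 input). Markers of germline, muscle, intestine, epidermis and neurons were present in all groups, with no marker at 0 throughout a group.

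*cpf-1* (WBGene00000773) is the worm ortholog of the smallest CstF subunit, which helps CstF pair with itself. In the WBcel235 assembly it lies on chromosome II from 8600449 to 8602440 on the minus strand, with 6 exons. Its mRNA was the only one of the 10 that was far more abundant in both IPs than in the inputs. It stood at 1033, 1393 and 1548 CPM in LIN41 IP replicates 1 to 3, against 80.7, 117 and 118 CPM in the LIN41 input. In the SART-3 strain it stood at 857, 1067 and 1691 CPM in the IP, against 89.4, 112 and 105 CPM in the input. Every IP library lay above every input library, with no overlap in either strain. These values rest on 226 to 557 counts in the LIN41 IP, against 105 to 187 counts in the LIN41 input, and on 304 to 697 counts in the SART-3 IP, against 121 to 172 counts in the SART-3 input.

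The fitted IP-over-input value of *cpf-1* was 3.65 on the log2 scale in the LIN41 strain (SE 0.296, 12.6-fold), and 3.64, 3.55 and 3.69 in the single replicates. In the SART-3 strain it was 3.51 (SE 0.294, 11.4-fold), with 3.23, 3.22 and 3.98 in the replicates. Among 12036 genes, *cpf-1* ranked 5th in the LIN41 strain, below *lin-29* (log2 3.995), *mab-10* (3.905), *madf-6* (3.80) and the bait *lin-41* (3.665). It ranked 3rd in the SART-3 strain, below *madf-6* (3.70) and *F56D2.8* (3.53). The difference between the strains, called LIN41-specific enrichment in the study's design, was 0.14 for *cpf-1* (SE 0.385) on the log2 scale, with replicate values of 0.41, 0.33 and −0.29 that lie on both sides of 0. *lin-41*, shown for scale, had 4.07 (SE 0.690), with replicate values of 6.045, 2.70 and 3.28. The first of these rests on 3 counts in the SART-3 IP, the detection floor.

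**Figure D1:**
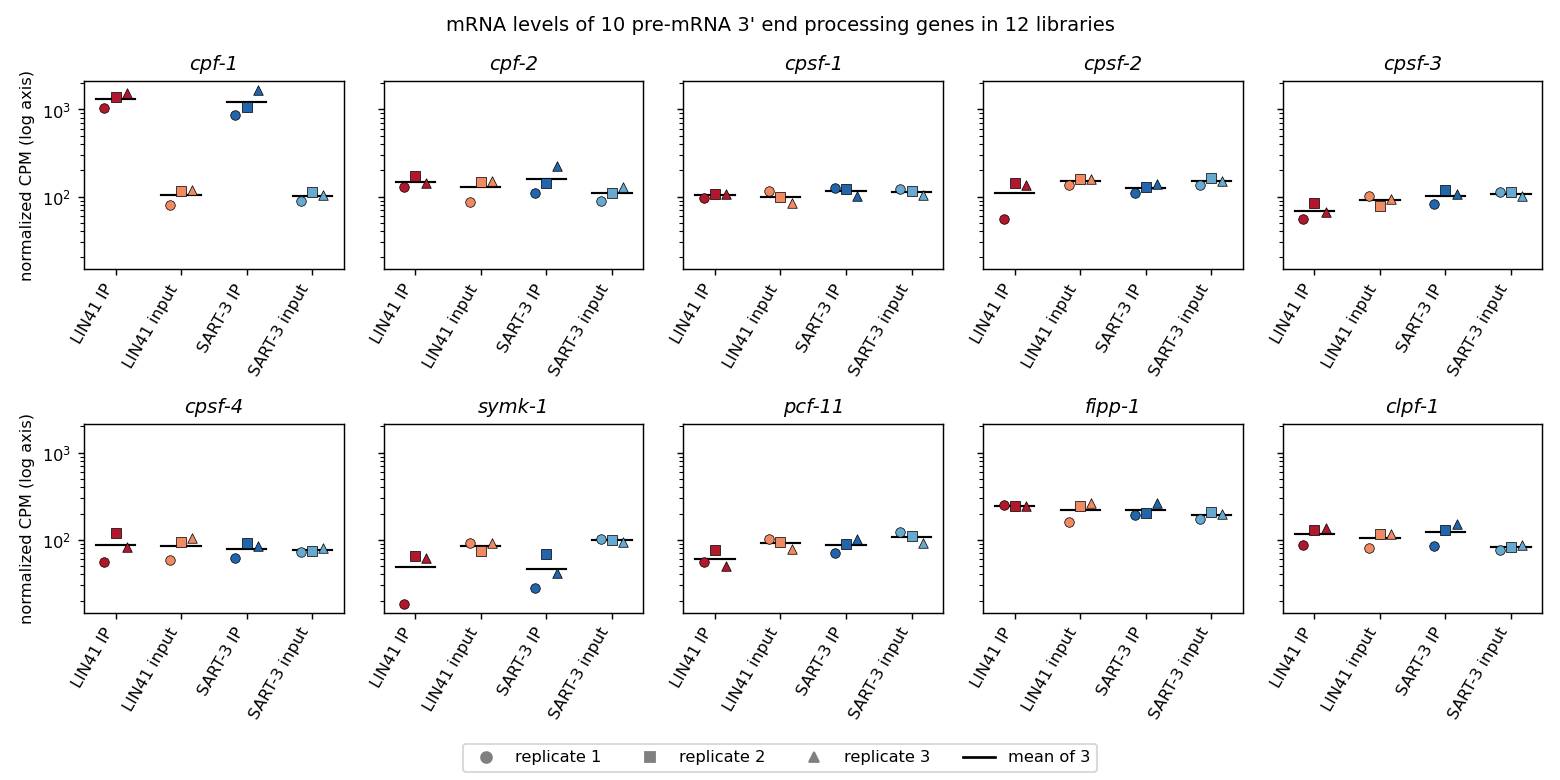
Normalized CPM (log axis) of the 10 genes in LIN41 IP, LIN41 input, SART-3 IP and SART-3 input; symbols are the 3 replicates and the bar is their mean. *cpf-1* stands at 857 to 1691 CPM in the 6 IP libraries and at 80.7 to 118 CPM in the 6 inputs, and *symk-1* lies lower in both IPs than in the inputs.

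The partner of *cpf-1* in CstF that binds RNA is encoded by *cpf-2* (chromosome III, 13266932 to 13268883, minus strand). It stood at 128, 170 and 142 CPM in the LIN41 IP, against 86.8, 147 and 153 CPM in the LIN41 input. In the SART-3 strain it stood at 110, 145 and 223 CPM in the IP, against 88.7, 110 and 127 CPM in the input. The libraries overlapped between IP and input in both strains. The fitted log2 values were 0.21 (SE 0.202) in the LIN41 strain and 0.53 (SE 0.191) in the SART-3 strain, and 0.06 (SE 0.161) and 0.59 (SE 0.136) without replicate 1. The scaffold subunit of CstF, encoded by *suf-1*, had 0.05 in both strains (SE 0.205 in the LIN41 strain and 0.183 in the SART-3 strain). Of the 3 CstF mRNAs, that of *cpf-1* alone was several-fold higher in the IPs.

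The fitted log2 values of *cpsf-1*, *cpsf-2*, *cpsf-3* and *cpsf-4* lay between −0.42 and 0.09 in the LIN41 strain and between −0.25 and 0.06 in the SART-3 strain. Several of them depend on a correction of the levels for coding length. *cpsf-1* (chromosome IV, 2009038 to 2032996, minus strand) encodes the largest CPSF subunit, and had fitted log2 values of 0.09 (SE 0.186) in the LIN41 strain and 0.05 (SE 0.168) in the SART-3 strain, at 96.0 to 108 CPM in the LIN41 IP, against 84.9 to 114 CPM in the LIN41 input. After the length correction its values were 0.61 (SE 0.197) in the LIN41 strain and 0.59 (SE 0.171) in the SART-3 strain. *cpsf-3* (chromosome IV, 13273846 to 13282878, minus strand) encodes the nuclease that cuts the pre-mRNA. It stood at 54.9, 85.0 and 66.7 CPM in the LIN41 IP, against 102, 78.1 and 94.6 CPM in the LIN41 input, and its fitted value of −0.40 (SE 0.223) held 1 replicate above 0 and 2 below. Its fitted value in the SART-3 strain was −0.06 (SE 0.189). Without replicate 1 it had −0.20 (SE 0.212) in the LIN41 strain and 0.09 (SE 0.151) in the SART-3 strain. After the length correction it had 0.0077 (SE 0.205) in the LIN41 strain and 0.33 (SE 0.164) in the SART-3 strain. *cpsf-2* (chromosome V, 7179172 to 7182858, plus strand) encodes the relative of this nuclease that does not cut. It was below its input in 3 of 3 replicates of both strains, with −1.26, −0.17 and −0.21 in the LIN41 strain and −0.32, −0.31 and −0.10 in the SART-3 strain. The first of these rests on 12 counts in LIN41 IP replicate 1, and without replicate 1 the fitted values were −0.19 and −0.23, against −0.42 (SE 0.212) and −0.25 (SE 0.197) with it. The length correction ended its negative direction, with 0.0054 (SE 0.203) in the LIN41 strain and 0.18 (SE 0.186) in the SART-3 strain. That correction also raised the median of all tested genes, by 0.1365 in the LIN41 strain and 0.093 in the SART-3 strain.

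*cpsf-4* (chromosome IV, 12092322 to 12093445, minus strand) encodes the zinc finger subunit that contacts the poly(A) signal, and *fipp-1* (chromosome V, 4371807 to 4373872, plus strand) the Fip1 ortholog. *cpsf-4* had fitted log2 values of 0.05 (SE 0.219) in the LIN41 strain and 0.06 (SE 0.207) in the SART-3 strain. *fipp-1* stood at 252, 241 and 242 CPM in the LIN41 IP, against 159, 242 and 264 CPM in the LIN41 input, and at 192, 202 and 264 CPM in the SART-3 IP, against 172, 209 and 197 CPM in the SART-3 input. Its fitted values were 0.16 (SE 0.205) in the LIN41 strain and 0.18 (SE 0.200) in the SART-3 strain, and 0.45 (SE 0.221) and 0.43 (SE 0.214) after the length correction. Without replicate 1 they were −0.07 (SE 0.149) and 0.18 (SE 0.137), so the sign in the LIN41 strain rests on replicate 1. For neither gene did the libraries of IP and input separate.

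*symk-1* (chromosome V, 8570311 to 8581745, plus strand), which encodes symplekin, was the only one of the 10 whose mRNA was lower in every IP library than in every input library of both strains. It stood at 18.3, 65.8 and 61.1 CPM in the LIN41 IP, against 91.1, 73.6 and 90.7 CPM in the LIN41 input. In the SART-3 strain it stood at 28.2, 69.0 and 41.2 CPM in the IP, against 102, 99.3 and 93.5 CPM in the input. Its fitted log2 values were −0.75 (SE 0.298) in the LIN41 strain and −1.03 (SE 0.270) in the SART-3 strain. The IP values rest on few counts, 4, 24 and 22 in the LIN41 IP and 10, 41 and 17 in the SART-3 IP. Without replicate 1 the fitted values were −0.39 (SE 0.229) and −0.75 (SE 0.190), and with levels corrected for coding length they were −0.27 (SE 0.243) and −0.53 (SE 0.213).

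The genes of cleavage factor II are *pcf-11* (chromosome III, 5024914 to 5029825, plus strand), whose product binds the tail of RNA polymerase II, and *clpf-1* (chromosome III, 3397743 to 3400644, plus strand), whose human ortholog is also an RNA kinase. *pcf-11* stood at 54.9, 76.8 and 50.0 CPM in the LIN41 IP, against 103, 93.7 and 78.2 CPM in the LIN41 input, so that every IP library lay below every input. Its libraries overlapped in the SART-3 strain, at 70.4, 89.2 and 102 CPM in the IP and 122, 110 and 91.6 CPM in the input. The fitted log2 values were −0.58 (SE 0.230) and −0.29 (SE 0.194), and after the correction for coding length −0.13 (SE 0.222) and 0.15 (SE 0.177). Without replicate 1 they were −0.44 (SE 0.223) and −0.12 (SE 0.1605). *clpf-1* stood at 86.9, 129 and 136 CPM in the LIN41 IP, against 79.9, 116 and 117 CPM in the LIN41 input, and at 84.5, 128 and 153 CPM in the SART-3 IP, against 75.4, 83.6 and 87.9 CPM in the SART-3 input. It was above its input in 3 of 3 replicates of both strains, with fitted values of 0.18 (SE 0.185) and 0.55 (SE 0.174), and 0.36 (SE 0.180) and 0.69 (SE 0.166) after the length correction.

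**Figure D2:**
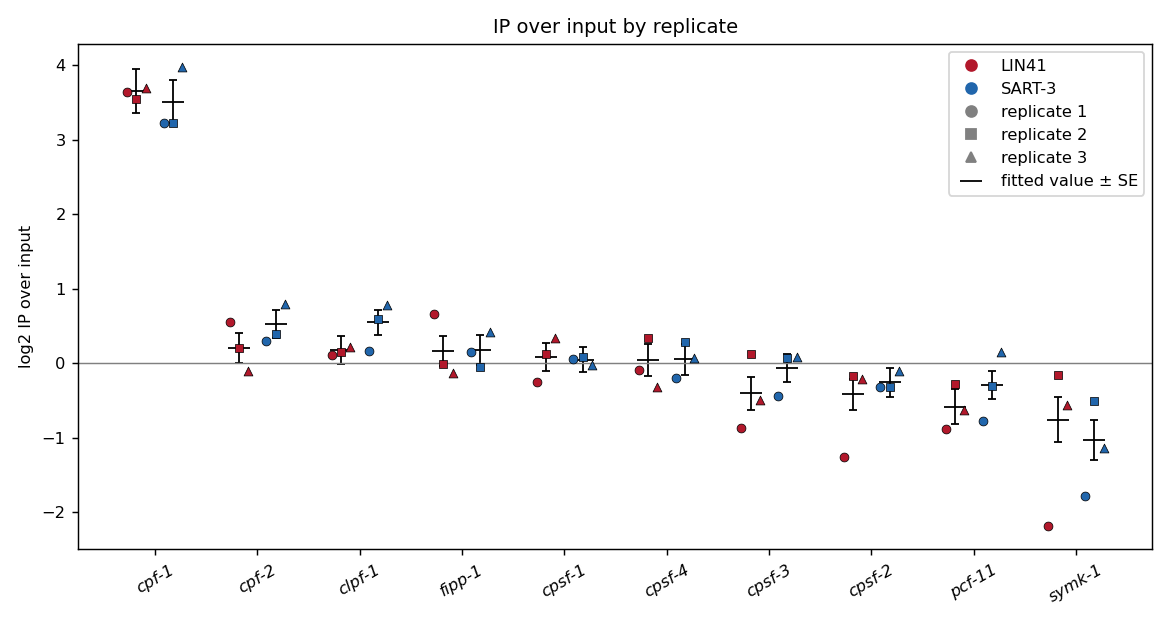
Log2 IP over input of the 10 genes in the LIN41 strain (red) and the SART-3 strain (blue), with replicate values as symbols and the fitted value ± SE as a black bar. *cpf-1* lies at 3.65 and 3.51, and the fitted values of the other 9 genes lie between −1.03 and 0.55.

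Counted over the set, 1 of 10 genes, *cpf-1*, was more than 2-fold higher in the LIN41 IP than in the LIN41 input in 3 of 3 replicates, where 1.89% of all tested genes were. The same 1 of 10 was so in the SART-3 strain, beside 2.38% of all tested genes, and in both strains, beside 1.35%. None of the 10 was more than 2-fold lower in 3 of 3 replicates, beside 1.22% of tested genes in the LIN41 strain and 1.61% in the SART-3 strain. The LIN41 IP was above the LIN41 input in 3 of 3 replicates for *cpf-1* and *clpf-1*, beside 21.4% of all tested genes, and below it for *cpsf-2*, *symk-1* and *pcf-11*, beside 27.4%. Above the input in 3 of 3 replicates of the SART-3 strain were *cpf-1*, *cpf-2* and *clpf-1*, beside 29.4%, and below it were *cpsf-2* and *symk-1*, beside 31.7%. The last 2 genes were below it in both strains, beside 18.3%. Every IP library was above every input for *cpf-1* alone, beside 11.8% of tested genes in the LIN41 strain and 18.6% in the SART-3 strain. Every IP library was below every input for *symk-1* and *pcf-11* in the LIN41 strain, beside 11.8%, and for *symk-1* in the SART-3 strain, beside 18%. These counts describe the values by which the set was formed.

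The median fitted log2 value of the 10 genes was 0.07 in the LIN41 strain and 0.05 in the SART-3 strain, and 0.05 in both without *cpf-1*. Over all tested genes it was −0.07 in the LIN41 strain and −0.03 in the SART-3 strain. LIN41-specific enrichment ran from −0.37 (*clpf-1*, SE 0.252) to 0.28 (*symk-1*, SE 0.411), with a median of −0.09, against −0.03 over all tested genes. It was more than 2-fold higher in 3 of 3 replicates for none of the 10, beside 0.166% of tested genes, and more than 2-fold lower for none, beside 0.0914%. It was above 0 in 3 of 3 replicates for none of the 10, beside 9.65% of tested genes, and below 0 in 3 of 3 for *clpf-1*, beside 12.7%. The sign of small values depends on the scaling. With library totals in place of TMM factors, the median of all genes moved by −0.333 in the LIN41 strain and −0.288 in the SART-3 strain. In the LIN41 strain *cpf-2* then had −0.11, *clpf-1* −0.14, *fipp-1* −0.17, *cpsf-1* −0.25 and *cpsf-4* −0.27. In the SART-3 strain *fipp-1* had −0.12, *cpsf-4* −0.23 and *cpsf-1* −0.24, while *cpf-2* and *clpf-1* stayed above 0, at 0.23 and 0.26. *cpf-1* then had 3.315 in the LIN41 strain and 3.22 in the SART-3 strain, and *symk-1* had −1.08 and −1.32.

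Over all 12036 genes the fitted log2 IP-over-input values of the strains had a Pearson r of 0.806 across genes, which are not independent replicates. The 5 genes whose log2 CPM was most like that of *cpf-1* over the 12 libraries were *F40A3.6* (Pearson r 0.994), *madf-6* (0.993), *R07H5.11* (0.991), *T08B2.4* (0.988) and *lpl-1* (0.984). *madf-6* had log2 IP over input of 3.80 in the LIN41 strain and 3.70 in the SART-3 strain, *F40A3.6* had 3.10 and 2.71, and *lpl-1*, the lowest of the 5, had 1.43 and 1.21. All 5, like *cpf-1*, were high in both IPs. Their inputs differed between strains by 0.03 to 0.22 on the log2 scale. Among the other 9 genes of the machinery, r with *cpf-1* ran from −0.689 (*symk-1*) to 0.619 (*clpf-1*). The 12 libraries share the split between IP and input, and these r carry no test.

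**Figure D3:**
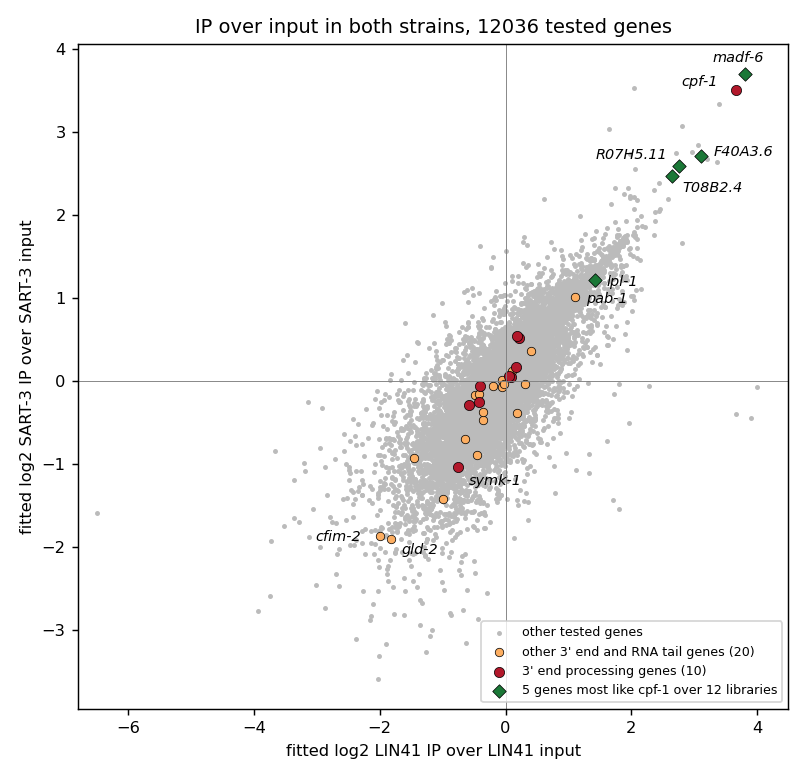
Fitted log2 IP over input in the LIN41 strain (horizontal axis) and the SART-3 strain (vertical axis) for 12036 genes, with the 10 genes in red, 20 other 3′ end and RNA tail genes in orange and the 5 genes most like *cpf-1* as green diamonds. *cpf-1* sits next to *madf-6* at the upper end in both strains, away from the other 9 genes.

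Where counting does not use strand, reads of a gene and of an overlapping antisense gene cannot be told apart, and whether it did is not given in the sources used here. The exons of *cpf-1* share 82 bases with *F28C6.5* on the opposite strand, whose log2 IP over input was 0.96 in the LIN41 strain and 0.54 in the SART-3 strain. The nearest protein-coding gene on the same strand, *pigg-1*, is 183 bases away and had −0.475 and −0.41. *rpl-26*, which encodes a ribosomal protein and lies 344 bases away on the opposite strand, had 1.82 and 1.68. Each of these 3 neighbours had lower values than the 3.65 and 3.51 of *cpf-1*, and whether their reads enter its count was not tested. Among the other members, *fipp-1* shares part of an exon with *neg-1* on the opposite strand. On the same strand, *symk-1* shares 12 exon bases with *C10B5.1*, and *pcf-11* shares 83 with *linc-2*, which is not among the counted genes. *cpf-2* shares 1 base with *F56A8.5* and *clpf-1* shares 7 with *npp-9*, both on the opposite strand. *cpsf-1*, *cpsf-2*, *cpsf-3* and *cpsf-4* share none. All these overlaps are of WBcel235 exons with their UTRs, while the counted gene models are older and of coding length. Whether the shared bases, those of *cpf-1* included, lie in counted stretches was not tested.

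IP over input also moved with coding length, the length of the gene model without UTRs. Across all tested genes the log2 value had a Pearson r with log2 coding length of −0.425 in the LIN41 strain and −0.472 in the SART-3 strain. Across the 9 genes other than *cpf-1* it was −0.601 in the LIN41 strain and −0.656 in the SART-3 strain, from *cpsf-4* with 909 bp to *cpsf-1* with 4365 bp. *cpf-1*, with 1293 bp, is near the median of 1152 bp of all tested genes. The 1486 other genes within 10% of its length had a median log2 IP over input of −0.10 in the LIN41 strain and −0.09 in the SART-3 strain, and the highest of them reached 3.995 in the LIN41 strain and 1.60 in the SART-3 strain. With levels corrected for coding length, *cpf-1* had 3.84 and 3.66, while the median of all tested genes moved up by 0.1365 and 0.093.

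The level of each mRNA in the worms is read from the 6 inputs. Per kilobase of coding length, *fipp-1* was the most abundant of the 10 at 134 ± 26.3 CPM per kb (SD, n = 6), followed by *cpf-2* at 117 ± 28.1, *cpsf-4* at 88.8 ± 18.2, *cpf-1* at 80.3 ± 11.9 and *clpf-1* at 72.5 ± 14.3 CPM per kb. Below these came *cpsf-2* at 59.4 ± 4.67, *cpsf-3* at 46.9 ± 5.89, *pcf-11* at 36.7 ± 5.66, *symk-1* at 26.7 ± 2.90 and *cpsf-1* at 24.4 ± 3.08 CPM per kb. The ranges of neighbours in this order overlapped, with the exception of *cpsf-2* (53.0 to 63.7) and *cpsf-3* (36.8 to 52.6). In the inputs *cpf-1* was thus 4th of the 10, an mRNA of ordinary level for this machinery. In the 6 IPs it was 1st, at 978 ± 254 CPM per kb, with *cpf-2* next at 151 ± 39.3 CPM per kb, and *symk-1* was last at 13.8 ± 6.18 CPM per kb.

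The comparison of the inputs asks whether the strains themselves differ in these mRNAs, and the choice of the genes did not use it. It was tested with edgeR's quasi-likelihood F test, two-sided, with Benjamini-Hochberg adjustment over 12036 genes. None of the 10 genes passed an adjusted p of 0.05, beside 1.41% of all tested genes (1.32% higher and 0.0914% lower in the LIN41 input), and 0 of 10 had an unadjusted p under 0.05, beside 9.25%. DESeq2 and edgeR's likelihood ratio test called none of the 10 either. The *cpf-1* inputs given above, 80.7, 117 and 118 CPM in the LIN41 strain and 89.4, 112 and 105 CPM in the SART-3 strain, overlapped, with a fitted log2 difference of 0.02 (SE 0.278, adjusted p = 1.00). The difference nearest to the threshold was that of *clpf-1*, at 0.32 on the log2 scale (SE 0.157, adjusted p = 0.563), higher in the LIN41 input in 3 of 3 replicates, beside 15% of all tested genes. No member had every LIN41 input above every SART-3 input, beside 1.83%. In whole worms, fewer cells of a type and less RNA per cell cannot be told apart.

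The remaining values were small and fell on both sides of 0. *cpf-2* had 0.22 (SE 0.177), *fipp-1* 0.18 (SE 0.190), *cpsf-4* 0.15 (SE 0.178) and *cpsf-2* 0.01 (SE 0.177) as the fitted log2 difference of the LIN41 input from the SART-3 input. On the other side, *pcf-11* had −0.23 (SE 0.169), *cpsf-3* −0.21 (SE 0.169), *cpsf-1* −0.19 (SE 0.152) and *symk-1* −0.18 (SE 0.213). These 4 were negative in 3 of 3 replicates, beside 14.5% of all tested genes. *symk-1* had every LIN41 input below every SART-3 input, beside 2.38%. The 4 are also among the 5 longest of the set. Across the 10 genes the input difference had a Pearson r with log2 coding length of −0.804, against −0.205 across all tested genes.

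**Figure D4:**
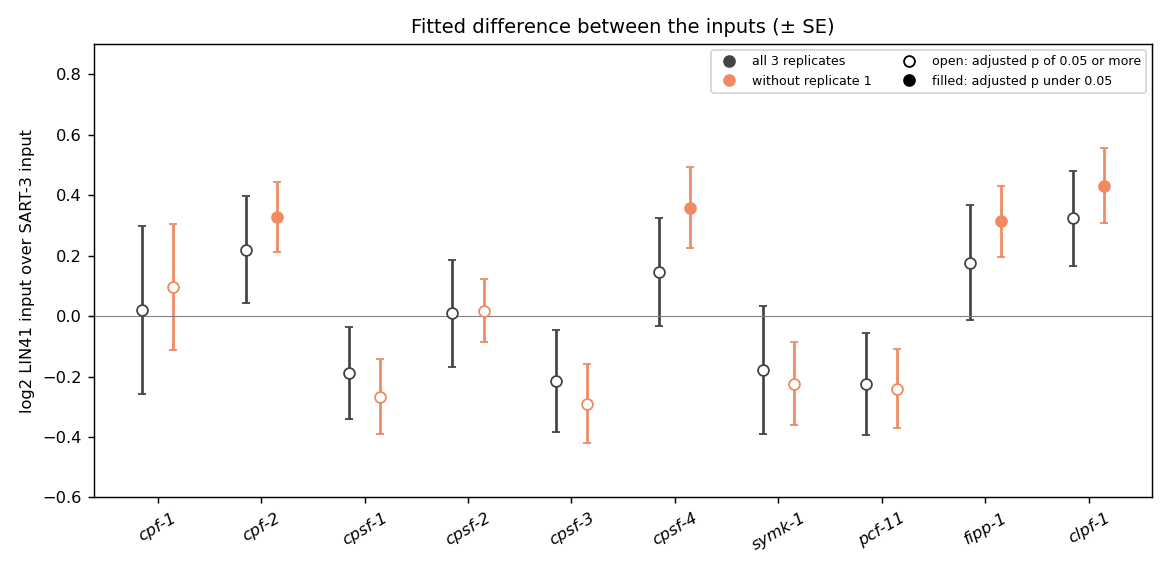
Fitted log2 LIN41 input over SART-3 input of the 10 genes ± SE, with all 3 replicates (grey) and without replicate 1 (orange); filled points have an adjusted p under 0.05. With all replicates no point is filled, and without replicate 1 *cpf-2*, *cpsf-4*, *fipp-1* and *clpf-1* are, all above 0.

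The calls in this comparison depend on which libraries are used. Without the replicate 1 libraries of all 4 groups, 15.4% of all tested genes were called higher and 8.53% lower (edgeR, Benjamini-Hochberg adjustment). In that fit, 4 of the 10 genes were higher in the LIN41 input, beside the 15.4%. They were *clpf-1* with a log2 difference of 0.43 (SE 0.124, adjusted p = 0.00788), *cpf-2* with 0.33 (SE 0.115, adjusted p = 0.0281), *fipp-1* with 0.31 (SE 0.116, adjusted p = 0.0391) and *cpsf-4* with 0.36 (SE 0.135, adjusted p = 0.0450). Each was higher in 2 of the 2 replicates left. *cpf-1* stayed at 0.10 (SE 0.209, adjusted p = 0.784), and none of the 10 was called lower. The 4 are among the shorter genes of the set, from 909 bp (*cpsf-4*) to 1542 bp (*fipp-1*). Leaving out LIN41 input replicate 1 alone gave 0 of 10 called, although 13% of all tested genes were. Leaving out SART-3 input replicate 1 alone also gave 0 of 10, beside 0.362%.

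Within the inputs, replicate 1 differed from replicates 2 and 3 along coding length. In the LIN41 input, log2 CPM in replicate 1 minus the mean of replicates 2 and 3 was −0.77 for *cpf-2*, −0.74 for *cpsf-4*, −0.67 for *fipp-1* and −0.53 for both *cpf-1* and *clpf-1*, the 5 shortest of the set. It was 0.32 for *cpsf-1*, 0.26 for *pcf-11*, 0.24 for *cpsf-3* and 0.15 for *symk-1*, and *cpsf-2* had −0.24. The Pearson r of this difference with log2 coding length was 0.901 across the 10 genes and 0.473 across all tested genes. In the SART-3 input it was 0.747 across the 10 genes and 0.221 across all tested genes, with values from −0.40 (*cpf-2*) to 0.27 (*pcf-11*). All 10 genes were read from the same libraries, so these r have no test. In the IPs the r across the 10 genes was −0.193 in the LIN41 strain and 0.455 in the SART-3 strain, and across all tested genes it was 0.0375 and −0.017.

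**Figure D5:**
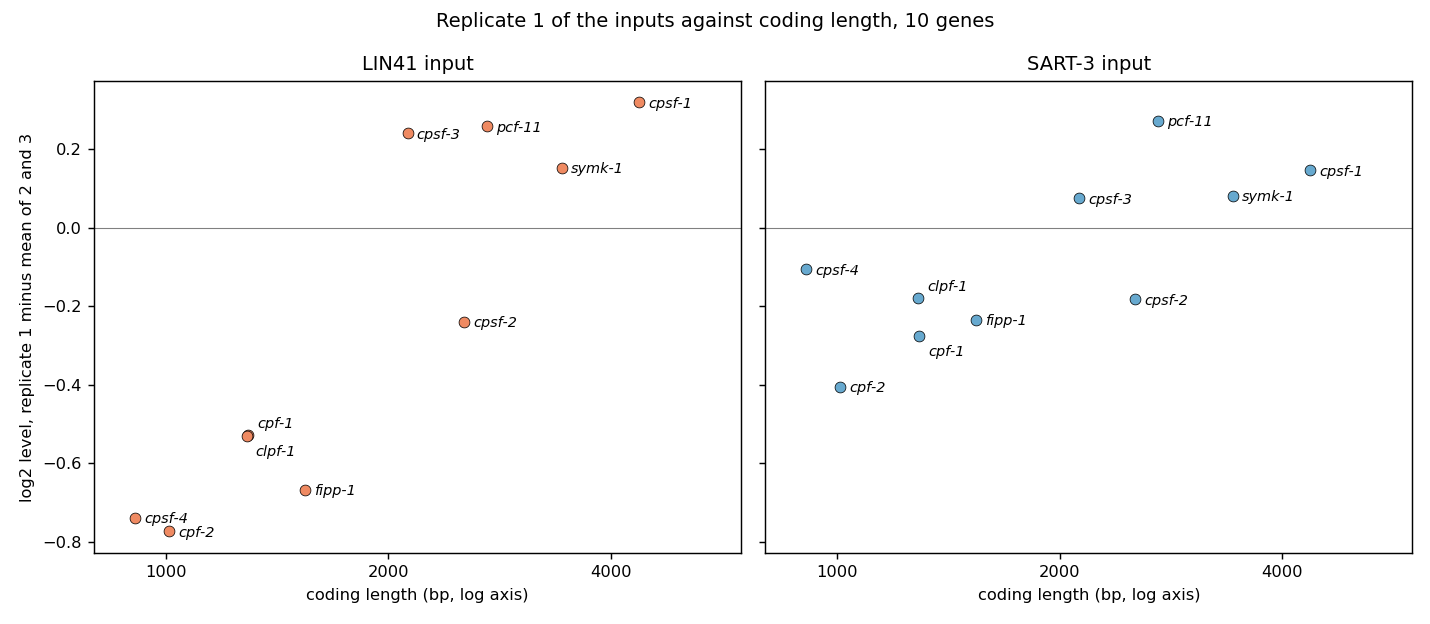
Log2 CPM in replicate 1 minus the mean of replicates 2 and 3 against coding length (log axis, in bp) for the 10 genes, in the LIN41 input (left) and the SART-3 input (right). The 5 shortest genes lie at −0.77 to −0.53 in the LIN41 input, and 4 of the 5 longest lie above 0 in both panels.

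Sperm markers moved with the inputs as well. Of 8 listed sperm genes, 7 passed the filter and 3 of the 7 were called higher in the LIN41 input (edgeR, Benjamini-Hochberg adjustment), beside 1.32% of all tested genes, with a median log2 difference of 0.93. Over all tested genes, 1 was called with the 6 inputs alone and 0 without the replicate block. The 3 sperm calls can therefore not all hold under those settings. The summed level of all 8 listed sperm genes was 254 to 682 CPM in the LIN41 input and 104 to 444 CPM in the SART-3 input, lowest in replicate 1 of each. In the IPs it was 366 to 900 CPM in the LIN41 strain and 152 to 696 CPM in the SART-3 strain. The germline list, which holds no sperm genes, had 715 to 790 CPM in the LIN41 input and 738 to 768 CPM in the SART-3 input, with 0 of 8 genes called, beside 1.41% of all tested genes. The part of these cells in the input values of the 10 genes was not tested.

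For the wider pathway, 21 other genes that act at mRNA 3′ ends or on RNA tails were listed, and 20 passed the filter (*gld-4* did not). None of the 20 was called between the inputs, beside 1.41% of all tested genes, and the unadjusted p was under 0.05 for 1, beside 9.25%. This was *parn-1*, which encodes a deadenylase (log2 difference 0.45, SE 0.192, adjusted p = 0.412, edgeR). None was more than 2-fold higher in 3 of 3 replicates of either IP, beside 1.89% in the LIN41 strain and 2.38% in the SART-3 strain. The highest value was that of *pab-1*, the cytoplasmic poly(A)-binding protein, with log2 IP over input of 1.11 (SE 0.343) in the LIN41 strain and 1.01 (SE 0.338) in the SART-3 strain, and with every IP above every input in both. Its replicates had 1.95, 0.65 and 0.76 in the LIN41 strain, highest in replicate 1, and 0.96, 0.89 and 1.18 in the SART-3 strain.

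The lowest values in this list were those of *cfim-2*, a subunit of cleavage factor I, with −1.995 (SE 0.597) in the LIN41 strain and −1.87 (SE 0.486) in the SART-3 strain, and of *gld-2*, a cytoplasmic poly(A) polymerase, with −1.82 (SE 0.736) and −1.91 (SE 0.606). Both were more than 2-fold lower in 3 of 3 replicates of the SART-3 IP, beside 1.61% of all tested genes. These values rest on few counts, many at or under the floor of 3. *cfim-2* had 3, 5 and 0 counts in the LIN41 IP and 3, 11 and 1 in the SART-3 IP, and *gld-2* had 2, 4 and 0 in the LIN41 IP and 1, 6 and 3 in the SART-3 IP. In LIN41 replicate 2 *gld-2* was above its input, at 0.76 on the log2 scale. The median over the 20 genes was −0.27 in the LIN41 strain and −0.16 in the SART-3 strain, and 9 of 20 were below 0 in 3 of 3 replicates in each strain, beside 27.4% of all tested genes in the LIN41 strain and 31.7% in the SART-3 strain. No gene of this list had a value near that of *cpf-1* in either strain.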

How the data were processed

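RIP-seq libraries were made with a TruSeq Stranded mRNA kit and sequenced as single-end reads. Input RNA was diluted to the concentration of the IP RNA. The authors kept 1 read for each 5′ end position, aligned what was left with QuasR and counted overlaps with the exons of WormBase WS190. The deposited table holds these raw counts, as whole numbers. The deposited gene lengths are multiples of 3 in 96.6% of genes and are called coding lengths. The methods name the ce6 assembly and the labels ce10. Keeping 1 read per position limits how many counts a base can hold, and *cpf-1* reached at most 0.539 counts per base, against 0.932 for the highest gene. The strand setting of the counting is not given in the sources used here.

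Positions and neighbours come from the Ensembl release 115 annotation of WBcel235, to which 18778 of 20182 gene IDs (93.0%) were matched for names. Groups and replicate numbers came from the sample labels. In R 4.3.3 with edgeR 4.0.16, a filter with filterByExpr and TMM factors (0.759 to 1.175) were followed by a single quasi-likelihood fit to the 12 libraries. Its terms were the replicate number, library type (IP or input) and protein (LIN41 or SART-3), with an interaction between both. The biological coefficient of variation was 0.167. The study's methods name a likelihood ratio test and a sequencing batch, and the replicate number stands in place of the batch here. The fit gave LIN41 IP against LIN41 input, SART-3 IP against SART-3 input, their difference, and LIN41 input against SART-3 input. Only the last was tested. Each SE was taken from the F statistic (log2 value over its square root). Single replicates were compared by subtracting log2 CPM, computed with a prior count of 2. DESeq2 1.42.0 was an alternative, and the closing section gives the others.

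Replicates were described as independent experiments. Deviations from the group mean correlated between libraries of the same number in 12 of 12 pairs from groups compared directly (Pearson r 0.289 to 0.724 across genes), so the replicate number was kept as a block. Pairs from groups not compared directly had r from 0.0097 (LIN41 input and SART-3 IP, replicate 2) to 0.595 (the same groups, replicate 3). The genes and lists were chosen with earlier results of these data known. Named beside the 10 genes are the baits, genes overlapping or next to them, the 5 genes most like *cpf-1* and those of the listed 3′ end genes with the largest values. *lin-29*, *mab-10* and *F56D2.8* were named after their values were seen. No nucleotide or protein sequences were used here.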

Additional observations from a re-analysis of the deposited data

How the results depend on the processing

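*cpf-1* stayed above 3 on the log2 scale in both IPs under every setting run. In the LIN41 IP it was 3.315 with library totals, 3.42 with at least 10 counts in every library, 3.84 with the correction for coding length, 3.22 on counts scaled to equal totals with a pseudocount of 8, and 3.93 after correcting counts for the ceiling that collapsing sets, a setting chosen after seeing the data, against 3.65 as reported. Leaving out replicates or single libraries gave 3.60 to 3.725 in the LIN41 IP and 3.26 to 3.65 in the SART-3 IP. The count of genes more than 2-fold from input in every replicate stayed at 1 in the LIN41 IP, and was 1 to 2 in the SART-3 IP, where *symk-1* joined without replicate 2, and that for LIN41-specific enrichment stayed at 0.

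Between the inputs, the count of called members was 0 to 4 with replicates or libraries left out (4 without replicate 1) and 0 under every other setting. Small values changed sign: *cpf-1* was −0.015 and *cpsf-2* −0.025 with library totals, and *cpsf-2* was −0.0060 with no filter and −0.0097 with the 6 inputs alone. With libraries left out, *cpf-1* ran from −0.12 to 0.11, *cpsf-2* from −0.059 to 0.10, *cpsf-4* from −0.010 to 0.36 and *symk-1* from −0.31 to 0.018. Without the replicate block no gene of 12036 was called, and *cpf-1* had 3.66 in the LIN41 IP, 3.555 in the SART-3 IP and 0.03 between inputs.

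Over all genes, calls between the inputs were 159 higher and 11 lower as reported, 148 and 6 with RLE factors, 26 and 3 with library totals, 356 and 32 with no filter, 17 and 1 with at least 10 counts, 239 and 32 with the length correction, 387 and 31 with the likelihood ratio test, 59 and 3 with DESeq2, 187 and 12 with the ceiling correction, and 1 and 0 with the 6 inputs alone. They were 1844 and 1019 without replicate 1, 10 and 2 without replicate 2, and 3 and 0 without replicate 3. Leaving out a single input library gave 1082 and 456 without LIN41 input replicate 1, 26 and 2 without its replicate 2 and 90 and 3 without its replicate 3, and 40 and 3, 8 and 1, and 20 and 3 without SART-3 input replicates 1, 2 and 3. Leaving out a single IP library gave 70 to 209 higher and 4 to 13 lower. The cause was not tested. Depth limits the IP values: 12 counts or fewer lie behind *symk-1*, *pcf-11*, *cpsf-2*, *cpsf-3* and *cpsf-4* in LIN41 IP replicate 1.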
